A study of Mus musculus with 4 samples.

Results

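A set of 10 early-response genes, induced by growth factors and stress in many cell types and not only in neurons, was described in whole brain of mice lacking the RNA editing enzyme ADAR2 and of their wild-type siblings. They are Cyr61, Ctgf, Btg2, Dusp1, Klf2, Klf4, Sik1, Ier3, Gadd45b and Gadd45g. Members were taken by gene symbol from the deposited table, in which 9 of the 10 genes had 1 transcript cluster (the probes that together read out the RNA of a locus) and Ctgf had 2, giving 11 of 33793 clusters. The list was selected on these same arrays, with the difference between genotypes known, so that difference is given for the members as a description and without a test.

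RNA came from the dissected whole brain of adult female 129SV mice. There were 2 arrays of wild type and 2 arrays of Adar2 knockout (the gene for ADAR2 is named Adarb1). Per the study's methods, both genotypes also carried a pre-edited Gria2 allele (Gria2 R/R), without which Adar2 knockout mice die early, so neither group is an unmodified mouse. Whole brain mixes neurons, glia, vessels and other cells, and here a smaller number of cells of a type cannot be told apart from less RNA per cell. All values are normalized log2 signals, in which a difference of 1 is a 2-fold change, and every difference is knockout minus wild type.

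Early-response genes are transcribed shortly after a stimulus, without the need for new protein synthesis, by factors that already lie in the cell. Serum response factor, CREB, and the YAP and TAZ coactivators with their TEAD partners are the best known of these, and they are reached through MAP kinase, cyclic AMP and Hippo signalling. The products fall into a few classes. Cyr61 and Ctgf (also named Ccn1 and Ccn2) are secreted matrix-associated proteins, Dusp1 and Sik1 encode a phosphatase and a kinase that act back on the inducing pathways, Klf2 and Klf4 are zinc finger transcription factors, and Btg2, Ier3 and the Gadd45 genes act in growth arrest, survival and stress responses.

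The sequences before the start of Cyr61, Btg2 and Dusp1 are shown because these 3 genes had the lowest knockout values relative to wild type, and because factor sites in such sequences are how early-response genes are usually grouped. RefSeq promoter windows were found for 8 of the 10 genes, and the 250 bases before each start are printed 5′ to 3′ on the gene's strand in build GRCm38.p6. Capitals mark the cyclic AMP response element TGACGTCA in Btg2 and Dusp1. In Cyr61 they mark the TEAD motif GGAATG, which lies on the other strand and so reads CATTCC, and the TATA box TATAAA. The windows are chr3:145649986-145650235 on the minus strand for Cyr61, chr1:134079156-134079405 on the minus strand for Btg2 and chr17:26508473-26508722 on the minus strand for Dusp1.
Cyr61: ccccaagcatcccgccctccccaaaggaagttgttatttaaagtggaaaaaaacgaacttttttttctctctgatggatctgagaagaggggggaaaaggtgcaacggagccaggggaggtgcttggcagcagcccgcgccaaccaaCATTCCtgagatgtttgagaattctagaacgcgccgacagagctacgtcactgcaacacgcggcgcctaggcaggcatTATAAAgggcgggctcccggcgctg
Btg2: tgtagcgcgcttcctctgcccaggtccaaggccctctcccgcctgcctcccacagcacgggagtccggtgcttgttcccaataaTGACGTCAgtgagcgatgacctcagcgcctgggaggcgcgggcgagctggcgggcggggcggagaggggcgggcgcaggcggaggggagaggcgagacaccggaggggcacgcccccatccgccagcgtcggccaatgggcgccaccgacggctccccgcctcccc
Dusp1: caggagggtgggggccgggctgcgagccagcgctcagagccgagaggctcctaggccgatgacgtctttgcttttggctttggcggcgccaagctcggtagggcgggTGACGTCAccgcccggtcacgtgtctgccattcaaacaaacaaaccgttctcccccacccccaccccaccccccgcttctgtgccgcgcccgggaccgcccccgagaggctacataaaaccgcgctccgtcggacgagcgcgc

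The cyclic AMP response element began 166 bases before the start of Btg2 and 143 bases before that of Dusp1. It was found in 2 of the 8 member promoters and in 1.55% of 32851 promoters of the same length, searched on both strands. The shorter form TGACG, which is part of the full element, was present in 5 of the 8 and in 17.8% of all promoters. In Cyr61 the TEAD motif began 103 bases and the TATA box 25 bases before the start. The TEAD motif was in 1 of the 8 and in 12.6% of all promoters, while the TATA box was in 3 (Cyr61, Gadd45b and Gadd45g) and in 12.4%. The EGR core GCGGGGGCG was in 2 of the 8, Klf2 and Klf4, against 2.57% of all promoters. The GC box GGGCGG was in 7 of the 8 and in 32.7%. Neither the AP-1 motif TGANTCA, found in 6.75% of all promoters, nor the CArG box bound by serum response factor, found in 1.47%, had a match in the 8 windows. A match describes the letters in these windows and does not show that a factor binds.

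The arrays were alike in scale, with median signals of 6.03 to 6.09. Y-linked genes, absent from females, read 3.49 to 4.40 over their 4 clusters, and each member was above that range on every array. Unexpressed genes can read higher than these clusters. Bpifa2, a salivary gland marker, read 5.13 and 5.09 in wild type, so a value above the range need not mean expression. The second Ctgf cluster, on the minus strand, read only 5.47 to 5.96. Adarb1, the targeted gene, read 10.50 and 10.45 in wild type and 9.16 and 8.96 in knockout. Its difference was -1.42 ± 0.12 (SE), with a Benjamini-Hochberg adjusted limma p of 0.409, and its signal stayed above the Y-linked range in knockout. Of all 33793 clusters, 2.31% were lower in knockout with an unadjusted limma p below 0.05, 3.64% were higher at that threshold, and 0.0% passed an adjusted p of 0.05. Groups that did not overlap, with both knockout arrays below both wild-type arrays, were found in 16.5% of all clusters, and the opposite order in 17.7%.

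Cyr61 had the lowest knockout value relative to wild type of all members. This CCN family protein binds integrins and is secreted by vascular cells, fibroblasts and other cells after serum, injury or stretch. Its cluster (17410974, chromosome 3, 145646971 to 145649985, minus strand, 21 probes) read 8.84 and 8.64 in wild type and 7.76 and 8.01 in knockout, with replicate 1 given before replicate 2 here and throughout. The groups were apart, with knockout lower, and the nearest pair of arrays of different genotype still differed by -0.63. The means were 8.74 ± 0.14 and 7.89 ± 0.18 (SD, n = 2 each), a difference of -0.855 ± 0.14 (SE), or 1.81-fold lower in knockout. It ranked at number 21 from the lowest of all 33793 differences.

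Ctgf, the close relative of Cyr61 and like it a target of YAP and TAZ, did not share that order. Its cluster on the gene's strand (17232235, chromosome 10, 24595442 to 24598683, plus strand) read 8.02 and 7.78 in wild type and 8.24 and 7.81 in knockout. The groups overlapped, and the highest and second-highest values came from different genotypes. The difference was 0.13 ± 0.18 (SE), a 1.09-fold change smaller than the gap of 0.43 between the knockout arrays. Without knockout replicate 1 it was -0.09. A second cluster carries the Ctgf symbol on the opposite strand (17239773, chromosome 10, 24549441 to 24597108, minus strand), and only 6 of its 14 probes are assigned directly to a transcript. It read 5.47 and 5.72 in wild type and 5.96 and 5.65 in knockout, again overlapping, with a difference of 0.21 ± 0.15 (SE). It lies on the other strand and is not a second reading of Ctgf mRNA. Ctgf shares chromosome 10 with the targeted Adarb1 but lies 52.7 Mb from it.

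Btg2, an antiproliferative protein that recruits the CCR4-NOT deadenylase and is induced by p53, growth factors and neuronal activity, came next in order after Cyr61. Its cluster (17227089, chromosome 1, 134074865 to 134079155, minus strand) read 8.82 and 8.97 in wild type and 8.27 and 8.48 in knockout. The groups did not overlap, and pairs of arrays of different genotype differed by -0.34 to -0.70. The means were 8.90 ± 0.11 and 8.38 ± 0.15 (SD, n = 2 each), a difference of -0.52 ± 0.13 (SE), or 1.43-fold lower in knockout. Both replicate gaps, 0.15 in wild type and 0.21 in knockout, were smaller than that.

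Dusp1 encodes a nuclear phosphatase that switches off MAP kinases such as p38 and JNK, and it too carries the cyclic AMP response element shown above. Its cluster (17342642, chromosome 17, 26505590 to 26508519, minus strand) read 10.46 and 10.41 in wild type and 9.95 and 10.04 in knockout. The groups did not overlap, and the replicates lay close together, with gaps of 0.05 and 0.09. The difference was -0.44 ± 0.11 (SE), or 1.36-fold lower in knockout. Among the members, Dusp1 had the widest margin between genotypes relative to the larger of its replicate gaps.

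Sik1, a salt-inducible kinase that restrains CREB-driven transcription by phosphorylating the CRTC coactivators, stood lower in knockout by less. Its cluster (17343263, chromosome 17, 31844248 to 31855792, minus strand) read 9.42 and 9.38 in wild type and 9.25 and 9.15 in knockout. These groups did not overlap and the difference of -0.20 ± 0.11 (SE), 1.15-fold, was larger than both replicate gaps, 0.04 and 0.10.

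The Krüppel-like factors Klf2, known for its induction by blood flow in endothelium, and Klf4, a factor of endothelial, epithelial and stem cells, each turned on knockout replicate 2. Klf2 (17502440, chromosome 8, 72319033 to 72321656, plus strand) read 7.45 and 7.49 in wild type and 7.45 and 7.11 in knockout. Knockout replicate 1 equalled wild-type replicate 1, so the groups tied at their edge. The difference of -0.19 ± 0.14 (SE) came to -0.02 without knockout replicate 2. Klf4 (17425401, chromosome 4, 55527137 to 55532475, minus strand) read 6.93 and 6.91 in wild type and 6.85 and 6.60 in knockout. Its groups did not overlap, but the difference of -0.20 ± 0.12 (SE) was smaller than the knockout gap of 0.25 and came to -0.07 without knockout replicate 2.

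Gadd45b and Gadd45g are small nuclear proteins that bind stress kinases and cell cycle regulators and take part in DNA demethylation, and Gadd45b is induced by neuronal activity. Gadd45g (17287361, chromosome 13, 51846675 to 51848475, plus strand) read 7.96 and 8.20 in wild type and 7.75 and 7.82 in knockout. Both knockout arrays were lower, with a difference of -0.295 ± 0.13 (SE), 1.23-fold, against replicate gaps of 0.24 and 0.07. Without wild-type replicate 2 it was -0.175. Gadd45b (17235511, chromosome 10, 80930091 to 80932204, plus strand) read 8.62 and 8.76 in wild type and 8.61 and 8.54 in knockout. The nearest arrays of different genotype were 0.01 apart, and the difference of -0.115 ± 0.11 (SE) was within the wild-type gap of 0.14. It moved to -0.045 without wild-type replicate 2, and to -0.185 when replicate 1 was left out instead. Gadd45b lies 3.51 Mb from Adarb1, and a part of the targeted locus in its signal was not tested.

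Ier3, a regulator of apoptosis induced by NF-kappa B and growth factors, showed no order of the genotypes. Its cluster (17337228, chromosome 17, 35821684 to 35822923, plus strand) read 8.56 and 8.50 in wild type and 8.44 and 8.72 in knockout. The wild-type arrays lay between the knockout arrays. The difference was 0.05 ± 0.13 (SE) and turned to -0.09 without knockout replicate 2.

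**Figure D1:**
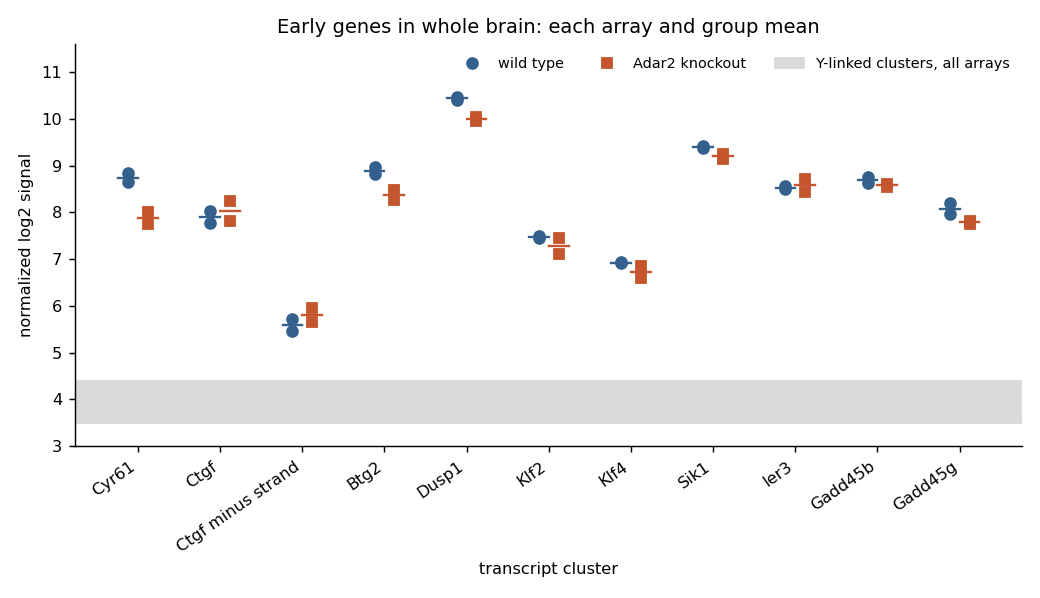
Normalized log2 signal of each member cluster on each array, with wild type as circles, Adar2 knockout as squares and short lines at the group means (n = 2 arrays each). The grey band spans the Y-linked clusters, 3.49 to 4.40, and all 11 member clusters lie above it, with the squares below the circles for Cyr61, Btg2 and Dusp1 and mixed with them for Ctgf and Ier3.

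Set together, 8 of the 11 member clusters were lower in knockout and 3 were higher, the latter being the Ctgf clusters and Ier3. Groups did not overlap in 7 clusters, in each with knockout lower, and in 0 with knockout higher, where the shares over all clusters were 16.5% and 17.7%. Since the members were chosen with this contrast known, nothing is read from these counts. The median member difference was -0.195, against 0.005 over all clusters, of which 47.7% were below 0. Without knockout replicate 2 the member median was -0.09, and without knockout replicate 1 it was -0.26.

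**Figure D2:**
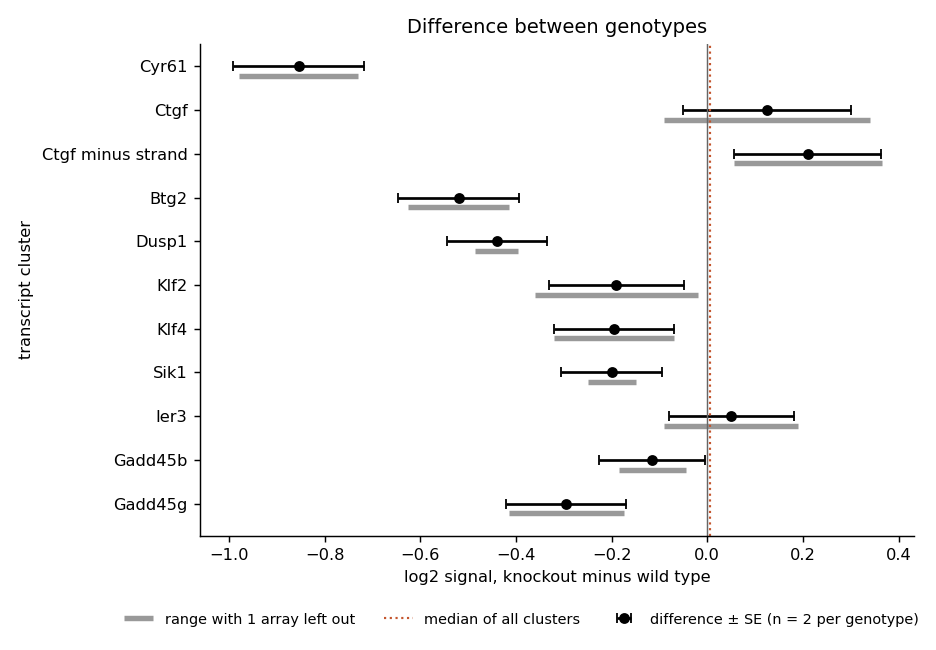
Difference in log2 signal, knockout minus wild type, for each member cluster, as a point with its SE from the limma fit (n = 2 arrays per genotype). Grey bars give the range when each array is left out in turn, and the dotted line is the median of all clusters at 0.005. Bars for Cyr61, Btg2 and Dusp1 end well below 0, that of Klf2 ends at -0.02, and those of Ctgf and Ier3 cross 0.

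How much the members varied between arrays of the same genotype is a separate measure. The gap between the 2 wild-type arrays ranged from 0.02 in Klf4 to 0.25 in the minus-strand Ctgf cluster, with a median of 0.14. In knockout it ranged from 0.07 to 0.43, with a median of 0.25, while the median gap over all clusters was 0.13 in each genotype. The knockout gap was the larger in 9 of the 11 member clusters, and Gadd45b and Gadd45g were the other two. Ctgf had the widest gap, 0.43 between the knockout arrays, which 7.70% of all clusters matched or exceeded. With 2 arrays a genotype these gaps are a description, and a difference in spread between genotypes was not tested.

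The lowest values were divided between the knockout arrays. Knockout replicate 1 held the lowest value in 5 member clusters, Cyr61 among them, and knockout replicate 2 held it in 4, while each wild-type array did so in 1. In 5 clusters (Cyr61, Btg2, Dusp1, Sik1 and Gadd45g) the difference between genotypes was larger than both replicate gaps, and in the other 6 it was smaller than at least 1 of them.

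**Figure D3:**
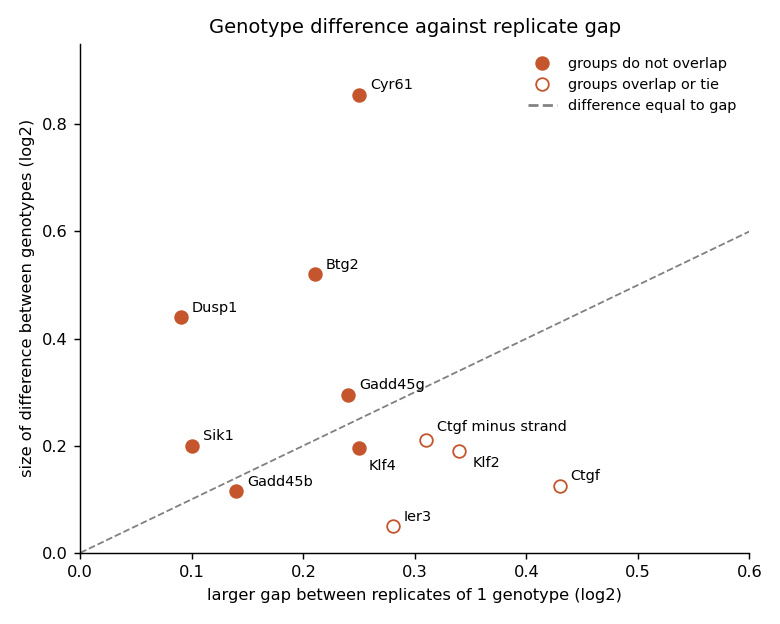
Size of the difference between genotypes (vertical axis, log2) against the larger of the gaps between replicates of 1 genotype (horizontal axis, log2) for the 11 member clusters. Filled points mark groups that did not overlap, and the dashed line marks a difference equal to the gap. Cyr61, Btg2 and Dusp1 lie far above the line, Sik1 and Gadd45g closer above it, and Ctgf, with a gap of 0.43, below it.

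The relatives of the members were examined next, in 7 lists of paralogs with 43 clusters, of which 4 were called lower in knockout and 2 higher, a call being an unadjusted limma p below 0.05, which 2.31% and 3.64% of all clusters reached. That split turned with the scaling, to 1 lower and 3 higher after quantile normalization and 0 lower and 3 higher after cyclic loess. Leaving out knockout replicate 1 or 2 left 0 and 1 calls lower, and leaving out wild-type replicate 1 or 2 likewise 0 and 1. None had an adjusted p below 0.05, and the genes named as calls here and in the pathway lists had adjusted limma p-values of 0.829 to 0.834. The call among BTG and TOB genes was Tob1. This gene, like Btg2 an antiproliferative partner of the CCR4-NOT deadenylase, read 8.99 and 8.85 in wild type and 8.31 and 8.70 in knockout, a difference of -0.415 ± 0.16 (SE). It was -0.22 without knockout replicate 1 and -0.61 without knockout replicate 2, and the call was lost in 7 of 13 alternatives. The DUSP list had 6 of 12 clusters lower and 6 higher, or 5 and 7 after quantile or cyclic loess normalization. Its calls were Dusp6 and Dusp2. Dusp6, a cytoplasmic MAP kinase phosphatase, read 10.12 and 10.06 in wild type and 9.83 and 9.76 in knockout. Dusp2 went the other way, at 6.65 and 6.72 in wild type and 7.01 and 6.92 in knockout.

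In the KLF list 9 of 16 clusters were lower and 7 higher, and after quantile or cyclic loess normalization it held 0 lower calls. Klf15, a glucocorticoid-induced regulator of metabolism, stood higher in knockout, with 7.41 and 7.48 in wild type and 7.91 and 7.95 in knockout. Its groups did not overlap and the difference of 0.485 ± 0.10 (SE) was called. The other calls were Klf3, a repressor, with a difference of -0.29 and Klf8 with one of -0.255. Differences in the remaining lists were small. For Nov, which had the largest difference among the other CCN genes, it was -0.205, with 8.94 and 8.84 in wild type and 8.69 and 8.68 in knockout. Wisp3, the next CCN gene, had -0.10. Sik2 and Sik3 had -0.075 and -0.07, Ier2 and Ier5l had -0.10 and -0.06, and Gadd45a had 0.245, opposite in sign to Gadd45b and Gadd45g, with none of these past an unadjusted p of 0.05.

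Over all 17 paralog and pathway lists, 181 of 182 genes were found, in 194 clusters. Of these, 13 were called lower in knockout and 4 higher, together 8.76%. Over all 33793 clusters 2009 were called, 2.31% lower and 3.64% higher. The lists were chosen with earlier results of these data known, so nothing is read from these shares. None of the 17 calls passed the adjusted threshold. The 17 calls became 5 and 9 on leaving out wild-type replicates 1 and 2 in turn, and 7 and 10 on leaving out knockout replicates 1 and 2. After quantile normalization the calls were 11, with 6 lower and 5 higher, and after cyclic loess they were 9, with 4 lower and 5 higher. Median centring gave 16 lower and 3 higher. Calls of 4 genes (Klf15, Npas4, Fos and Egr2) held in all 13 alternatives run, and the other 13 were each lost in 3 to 7 alternatives.

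The activity-induced transcription factors, which share stimuli with the members in neurons, held 4 of the 13 lower calls, namely Npas4, Fos, Egr2 and Egr1. In this list 12 of 14 clusters were lower, with a median of -0.14, and quantile and cyclic loess normalization gave 12 lower and 3 calls each. The median was -0.09 after cyclic loess and ranged from -0.22 without wild-type replicate 1 to -0.0975 without wild-type replicate 2. Npas4, an activity-dependent factor of neurons, read 9.59 and 9.81 in wild type and 8.90 and 8.85 in knockout, a difference of -0.825. Fos, a subunit of AP-1, read 8.32 and 8.27 in wild type and 7.59 and 7.81 in knockout, a difference of -0.595. Each of these had groups that did not overlap, as did the zinc finger factors Egr2 and Egr1, with differences of -0.41 and -0.28. The call for Egr1 held in 6 of 13 alternatives. Arc, counted in this list although it is a synaptic effector and not a transcription factor, had a difference of -0.085 (adjusted p = 0.932 in limma).

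The 38 clusters of other growth-factor early genes were divided, with 22 lower and 16 higher, 2 calls in each direction and a median of -0.06, which was 0.005 without knockout replicate 2. The calls were 1 lower and 2 higher after quantile and 0 lower and 2 higher after cyclic loess normalization. On the deposited scale the calls with a lower knockout value were Zfp36l2, an mRNA decay factor, at -0.32 and Trib1, a pseudokinase that limits MAP kinase signalling, at -0.275. Higher in knockout were the EGF receptor ligands Areg, at 0.38, and Ereg, at 0.36. A second Ereg cluster had the opposite sign, -0.20, so the probes for that gene disagreed. Areg read 5.25 and 5.39 in wild type and 5.76 and 5.64 in knockout, without overlap.

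**Figure D4:**
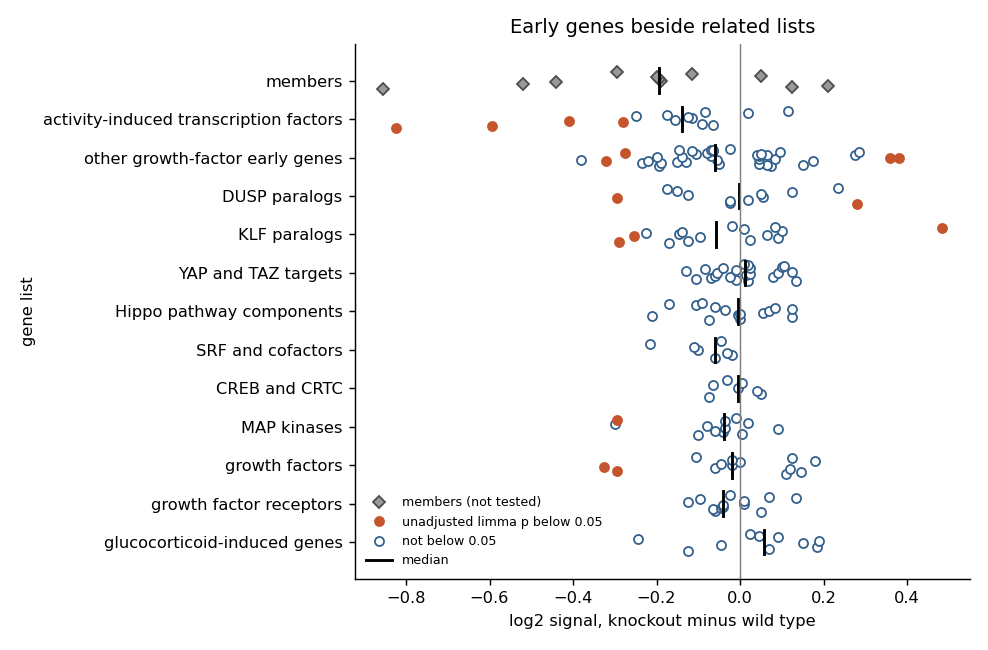
Difference in log2 signal, knockout minus wild type, of each cluster in the member list and in the pathway and paralog lists with most clusters. Diamonds are the members, which were not tested, filled circles in the other lists have an unadjusted limma p below 0.05, and black bars are list medians. The members have a median of -0.195, the activity-induced factors -0.14, and the YAP and TAZ targets 0.01 with no filled circle.

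The pathways that feed the members were followed from signal to nucleus. Among growth factors the calls were Vegfa and Tgfa. Vegfa, the endothelial growth factor, had a difference of -0.325, which was -0.195 without wild-type replicate 1 and lost its call in 6 of 13 alternatives. The EGF receptor ligand Tgfa had one of -0.295, while 7 of 13 clusters in all were lower and 5 higher. This order reversed to 5 lower and 8 higher after quantile or cyclic loess normalization, with 1 call. No growth factor receptor was called, and the 2 with the largest differences were the VEGF receptor Flt1 at 0.135 and the PDGF receptor Pdgfra at -0.125. Neither separated the genotypes. Flt1 tied at its edge, at 7.71 and 7.54 in wild type and 7.81 and 7.71 in knockout. Pdgfra overlapped, at 8.41 and 8.26 in wild type and 8.0 and 8.42 in knockout. Of 12 MAP kinase clusters 9 were lower, and p38 alpha, encoded by Mapk14 and a substrate of Dusp1, was called, with 9.39 and 9.44 in wild type and 9.22 and 9.02 in knockout, a difference of -0.295. After quantile and cyclic loess normalization 7 and 6 of the 12 were lower with 0 calls, and the Mapk14 call was lost in 7 of 13 alternatives.

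Of the genes other than Cyr61 and Ctgf that YAP and TAZ are known to induce, 10 of 22 clusters were lower and 12 higher, with 0 calls and a median of 0.01, which turned to -0.03 after median centring, where 16 were lower and 6 higher. The largest were Ankrd1 at 0.135, whose wild-type arrays, 4.69 and 5.22, lay outside the knockout values of 5.18 and 5.0, and Asap1 at -0.13. Hippo pathway components gave 8 lower and 5 higher of 15, again with 0 calls, and the TEAD factor Tead1 and the upstream regulator Nf2 had -0.21 and -0.17. Nf2 overlapped between genotypes, at 8.14 and 7.65 in wild type and 7.86 and 7.59 in knockout. All 7 clusters of serum response factor and its cofactors had a lower knockout value in the deposited scale, 6 after quantile or cyclic loess normalization, with a median of -0.06 and 0 calls. The most different was Mkl2, a coactivator that responds to actin, at -0.215, followed by Mkl1 at -0.11. CREB and CRTC genes had 4 clusters lower and 3 higher with 0 calls, and 2 lower and 5 higher after quantile or cyclic loess normalization. Glucocorticoid-induced genes, a list of genes that answer to stress hormones, had 3 clusters lower and 7 higher and 0 calls, with Cdkn1a at -0.245 and Ddit4 at 0.19. Cdkn1a read 9.35 and 9.37 in wild type and 9.37 and 8.86 in knockout, so only knockout replicate 2 was low. Without wild-type replicate 1 the list had 6 lower and 4 higher, and its median of 0.0575 turned to -0.0575. Other list medians near 0 also changed sign with an array left out. That of the YAP and TAZ targets was -0.03 to -0.005 with each of the 4 arrays left out in turn, that of growth factors was 0.02 without wild-type replicate 1, and those of the BTG and TOB, CREB and CRTC, and DUSP lists were 0.025, 0.04 and 0.0425 without knockout replicate 2.

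The cells in which these genes are best known outside neurons were followed by marker lists, summed as linear signal (2 to the power of the log2 signal, in arbitrary units). Endothelial markers summed to 2140 and 1927 in wild type and 2010 and 1807 in knockout, with 6 of 10 clusters lower and 4 higher, 5 and 5 after quantile or cyclic loess normalization and 10 lower after median centring. Mural cell markers summed to 4532 and 4458 in wild type and 4533 and 4215 in knockout. Meningeal markers were 1856 and 1858 in wild type and 1934 and 1982 in knockout. The endothelial and mural sums overlapped between genotypes. The endothelial median of -0.02 was 0.0575 without wild-type replicate 1 and -0.15 without wild-type replicate 2. Within the meningeal list Dcn had a difference of 0.255 and Aldh1a2 one of -0.31, and the list had 4 clusters lower and 6 higher, or 7 lower and 3 higher without wild-type replicate 1. Astrocyte markers were 8196 and 8089 against 7263 and 7759, with Gja1, the astrocyte gap junction protein, at -0.27 (adjusted p = 0.834, a call lost in 8 of 13 alternatives), and microglia markers were 1987 and 2088 against 1816 and 1857. Neuronal markers, whose clusters read 8.68 to 13.16, summed to 26300 and 25620 in wild type and 24520 and 24730 in knockout. The neuron, astrocyte and microglia sums were each lower in both knockout arrays on the deposited scale, and their part in the member differences was not tested. For neurons this depended on the scaling, since 7 of 8 clusters were lower as deposited, 4 after quantile and 3 after cyclic loess normalization, with medians of -0.03, -0.00187 and 0.02. Microglia and astrocyte lists had 7 of 8 and 5 of 7 clusters lower under both normalizations. Oligodendrocyte markers summed to 13900 and 15400 in wild type and 14100 and 14340 in knockout, overlapping, with 2 calls lower, the myelin protein Mog at -0.35 and the lineage factor Olig2 at -0.27 (adjusted p = 0.834 each). These calls were lost in 5 and 7 of 13 alternatives. Their 6 of 7 lower clusters became 3 after quantile or cyclic loess normalization. Choroid plexus markers summed to 8583 and 10960 in wild type and 9570 and 10490 in knockout, also overlapping.

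Some markers set single arrays or a genotype apart. Blood markers summed to 8133 and 6593 in wild type and 5171 and 7266 in knockout, with 6 of 8 clusters lower. Of these, Alas2, an enzyme of haem synthesis in red cells, had a difference of -0.735 (adjusted p = 0.834), a call lost in 7 of 13 alternatives. The blood median of -0.265 was -0.0375 without knockout replicate 1. The blood sum, lowest in knockout replicate 1, was set mainly by the globin gene Hba-a2. Hba-a2 overlapped between genotypes, at 12.78 and 12.47 in wild type and 12.14 and 12.59 in knockout. A part of blood in the member values was not tested. Pituitary markers summed to 399 and 297 in wild type and 2367 and 1383 in knockout, the latter sums set mainly by the hormone genes Prl and Gh, with differences of 4.12 and 3.17. The other 7 clusters differed by 0.01 to 0.51, with 9 of 9 clusters higher in knockout (7 of 9 under each other scaling) and 2 of them not above the Y-linked range on any array. The salivary gland sum was raised in knockout replicate 1 alone, at 7640 against 232 to 268 on the others. It was set mainly by Bpifa2, at 12.61 on that array and 5.28 in knockout replicate 2. Smr2, Mucl2 and the Muc19 clusters of the list were not highest in knockout replicate 1. Olfactory bulb markers were lowest in knockout replicate 2, at 1056 against 1389 to 1593. With each of the 4 arrays left out in turn, Cyr61 had a difference of -0.98 to -0.73 and Dusp1 one of -0.485 to -0.395. These ranges cannot show whether such tissue contributed, since the pituitary sums were raised in both knockout arrays. How far tissue carried into the dissection contributed to the member values was not tested.

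**Figure D5:**
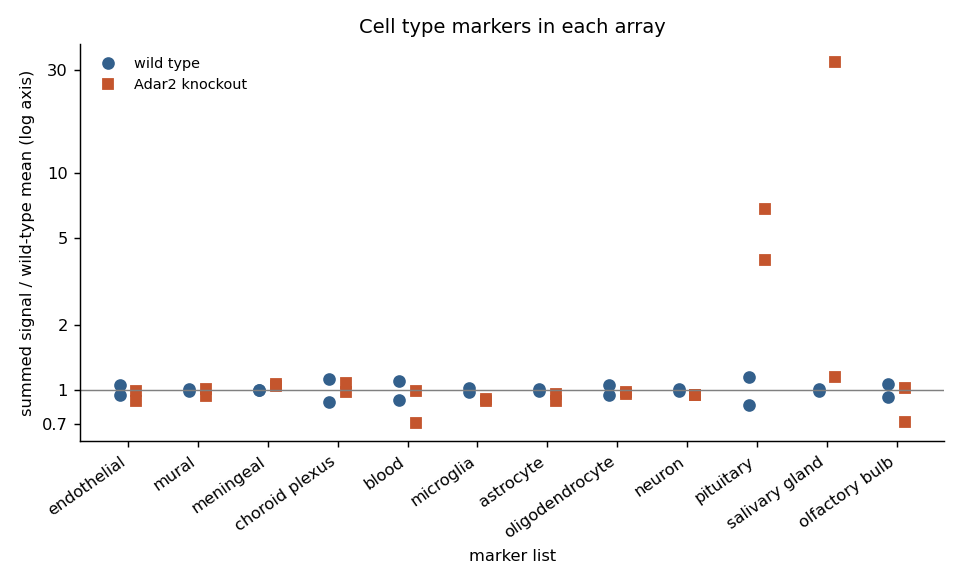
Summed signal of each cell type marker list on each array divided by the mean of the wild-type arrays (log axis), with wild type as circles and Adar2 knockout as squares. Endothelial, mural and neuronal lists stay near 1, the pituitary list lies above it in both knockout arrays, and the salivary list does so in knockout replicate 1 alone, with sums of 7640 and 268.

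The genes whose pattern over the 4 arrays lay nearest to that of each non-overlapping member were found as the smallest root mean square distance after each cluster's own mean was taken off, among 24179 clusters. Those near Cyr61 included 2900002K06Rik at a distance of 0.123 and Gm20342 at 0.134. In 2900002K06Rik, which read 6.24 and 5.77 in wild type and 5.19 and 5.42 in knockout, knockout replicate 1 was lowest, as for Cyr61. For Btg2 they were Zfp872 at 0.043, Serpina3n, an acute-phase serine protease inhibitor of reactive astrocytes, at 0.0502 and Zkscan4 at 0.0505. Serpina3n read 10.10 and 10.14 in wild type and 9.54 and 9.66 in knockout. For Dusp1 they were Zfp449 at 0.0249, Sfrs18 at 0.0259 and Lin9 at 0.0277.

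Members with smaller differences had closer neighbours. Those of Klf4 were Wdyhv1 at 0.00707, Gosr2 at 0.00829 and Caml at 0.00866, and those of Sik1 were Hspa13, Ctnnbl1 and AI414108, each at 0.00433. Gadd45b lay nearest to Icam5 at 0.00433, with 1700029P11Rik and Mir677 each at 0.00829, and Gadd45g to Gm606 at 0.00433, Usp35 at 0.00829 and Fat2 at 0.0109. With 4 arrays such likeness describes these values alone. None of the genes named here was a paralog or a pathway gene of the lists above.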

How the data were processed

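Biotin-labelled whole-transcript targets from total RNA were run on 4 Affymetrix mouse gene arrays, 2 wild type and 2 Adar2 knockout, grouped by the labels. The authors deposited normalized log2 signals, given to 2 decimals, for 33793 transcript clusters. The submitters' processing notes name Affymetrix Expression Console and RMA. The genome build is not given in the sources used here. Of the 10 members, 10 overlapped their RefSeq span in GRCm38.p6 and 6 had the same span. The table also holds the authors' own group means, log ratios, fold changes and p-values, which were not used.

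The deposited log2 signals entered limma 3.58.1 (lmFit and eBayes, two-sided, genotype as the only term) in R 4.3.3, with Benjamini-Hochberg adjustment over all clusters and no filter. SEs come from this fit, SDs from 2 arrays. A call is an unadjusted p below 0.05. The labels do not say that replicates are separate animals, so p-values measure only the spread between these arrays, and an exact permutation test of 2 against 2 cannot give a two-sided p below 0.333. The number of arrays limits the precision. Calculations were tested on simulated data.

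The members, gene lists and markers were chosen with earlier results of these data known. Named genes are the members, Adarb1, Npas4, Fos, Egr1 and Arc, the called clusters of each list (at most 4, or the 2 largest differences where none was called), and the 3 nearest patterns of each non-overlapping member. The named cell type markers were chosen after their values were seen. Some genes that these rules name are not reported here. As alternatives, cyclic loess and quantile normalization and median centring were tried, with signal and cross-hybridization filters, the replicate block, other variance models, leaving out each array, and, chosen after seeing the data, leaving out the minus-strand Ctgf cluster. Promoters are RefSeq windows of GRCm38.p6. Protein sequences were not used here. Summaries used Python 3.11.15 with pandas 2.3.3, and figures matplotlib 3.10.9.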

Additional observations from a re-analysis of the deposited data

How the results depend on the processing

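Of the 11 member clusters, 8 were lower in knockout, and 8 or 9 were under every alternative run. The member median of -0.195 ranged from -0.26 (without Adar2 knockout replicate 1) to -0.09 (without Adar2 knockout replicate 2) when each array was left out, and was -0.198 without the minus-strand Ctgf cluster, an alternative chosen after seeing the data. The 17 calls in paralog and pathway lists became 11 after quantile normalization, 9 after cyclic loess, and 5 to 10 when each array was left out. The 2009 clusters with an unadjusted p below 0.05 became 989 among clusters above the median signal, where fewer are tested, and 1221 to 1801 when each array was left out, with 1221 without wild-type replicate 1. No cluster passed the adjusted threshold in limma or in the other alternatives except a test without variance shrinkage, which gave 15. The cause of these shifts was not tested.

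Same-numbered arrays did not pair (correlation of their deviations 0.0516, under the 0.1 required). With the replicate block the list calls were 11, the clusters with an unadjusted p below 0.05 were 1693, and the member median was -0.195. Scaling moved the split of all calls. Of them 38.8% were lower in knockout as deposited, 60.5% after median centring, 51.3% after quantile and 49.8% after cyclic loess normalization, with all-cluster medians of -0.03, -0.00313 and 0.00138 in the latter. Signals near the Y-linked range give little room to see a lower value.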
